A study of Mus musculus with 12 samples.

Results

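The comparison described here is that of primary astrocytes from *Rack7*-cKO and WT mice at postnatal day 1 (P1). It was chosen by the column titles of the deposited count table, which gave 2 libraries labelled P1 *Rack7*-cKO and 2 labelled P1 WT, 4 of the 12 in the series. The other 8 libraries were cKO and WT astrocytes at P6 and P8, with 2 per genotype and age, and they served to estimate the spread and to set the P1 differences beside later ones. *Rack7* is the study's name for *Zmynd8*. In the cKO mice both *Rack7* alleles carried loxP sites around exons 3 and 4 and were recombined by Cre under the human GFAP promoter (hGFAP-Cre), which is active from mid-gestation in neural stem cells of the dorsal forebrain. The WT mice carried the same hGFAP-Cre with unmodified *Rack7* alleles, so that Cre was shared by all groups. Brain tissue was stripped of its meninges, dissociated with Accutase and grown on Matrigel in an astrocyte medium; microglia and oligodendrocytes were then shaken off, and the cells left behind were grown to confluence. The floxed mice were made on C57BL/6, and sex is not given in the labels. The labels call the 2 libraries of a group biological replicates, but how many animals or litters went into each culture is not given, so the p-values measure only the spread between these libraries. The question was which functions and gene families, beyond the Wnt ligands, differed between the cKO and WT cultures at P1.

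Astrocytes are the glia that take up glutamate and potassium, couple through gap junctions, contact vessels with their endfeet and secrete factors that act on synapses. In culture they grow as a flat monolayer, and fibroblasts, mural cells, endothelial cells and microglia are the usual companions of such a layer. RACK7 (ZMYND8) is a nuclear protein that reads modified histone tails and acts with repressor complexes. The extracellular matrix that recurs below is built from fibrillar collagens, basement membrane collagens and laminins, elastic fibres and proteoglycans, and is remodelled by matrix metalloproteases.

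Whole-gene counts of *Zmynd8* (chr2:165784152-165899016) were 136 and 136 CPM (reads per 1000000 of the scaled library total) in the libraries labelled WT and 213 and 216 CPM in those labelled cKO. The gene was therefore counted higher, not lower, under the cKO label (log2 fold change, cKO over WT, 0.65 ± 0.047 SE). Reads from exons outside the deletion enter this count, so it does not check the loss of exons 3 and 4, and "cKO" and "WT" below mean the libraries so labelled. Library totals at P1 lay between 54413504 and 76280438 counts, and replicates of a label correlated at 0.992 to 0.993 (Pearson, log2 CPM over genes). Of the 10 astrocyte markers, *Slc1a3*, a glutamate transporter, was 416 to 433 CPM in all 4 libraries with a log2 fold change of 0.00, while *S100b*, a calcium-binding protein, was low in all, from 0.995 to 2.44 CPM. *Gfap*, the astrocytic intermediate filament, was 390 and 402 CPM in WT and 578 and 559 CPM in cKO, and the water channel *Aqp4* was 773 and 786 CPM in WT and 564 and 562 CPM in cKO. Both differences passed an edgeR adjusted p of 0.05 without reaching a fold of 1.5. The glutamate transporter *Slc1a2* was 12.6 CPM in cKO replicate 1 against 78.3 to 84.9 CPM in the other 3 libraries. All 4 libraries held Y-linked transcripts and had *Xist*, the X-inactivation RNA, at or below 0.75 CPM.

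Of 17938 genes tested, 719 were higher in cKO (4.01% of those tested) and 160 were lower (0.892%), at a Benjamini-Hochberg adjusted p below 0.05 in edgeR's quasi-likelihood test and a fold change of at least 1.5, which is what "rose", "fell" and "called" mean below. With the study's own cut-off, an unadjusted p below 0.05 and the same fold, 1146 rose (6.39%) and 444 fell (2.48%). The rises made up 81.8% of the adjusted calls and 72.08% of the unadjusted ones. Without WT replicate 1 the falls numbered 101, and with the 4 P1 libraries fitted alone there were 523 rises and 124 falls. The median log2 fold change over all genes tested was 0. Genes were sorted into 78 lists by function or family, of which 62 held at least 1 called gene. Fibroblast or meningeal markers had the highest share of rises, at 9 of 9. Elastic fibre genes, laminins, endothelial markers, small leucine-rich proteoglycans, collagens, retinoic acid genes and metalloproteases each had over 30% of members raised, as did forkhead genes. The lists of DNA replication, mitosis, ribosomal, histone and cholesterol genes held no call.

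Collagen chains were called in 1 direction only. Of 35 tested chains, 13 rose and none fell, which is 37.1% against the 4.01% of all genes. The median log2 fold change of the 35 was 0.59, with 30 chains above 0 and 5 below. Of those 5, 1 passed the adjusted p without reaching the fold. The chains of type I and type III collagen make the fibrils of skin, tendon and meninges. *Col1a2* (chr6:4504814-4541544) stood at 74.8 and 74.3 CPM in WT and 849 and 844 CPM in cKO. *Col3a1* (chr1:45311538-45349706) stood at 33.8 and 30.8 CPM in WT and 369 and 370 CPM in cKO. *Col1a1* (chr11:94936224-94953042) had 233 and 249 CPM in WT and 1087 and 1065 CPM in cKO. In each of these genes the replicates nearly coincided and the labels lay far apart. The log2 fold changes were 3.51 ± 0.037 (SE, adjusted p = 1.6e-10) for *Col1a2*, 3.52 ± 0.064 (adjusted p = 1.1e-08) for *Col3a1* and 2.16 ± 0.046 (adjusted p = 1.2e-08) for *Col1a1*, by edgeR.

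The upstream bases of 3 of the most raised chains are shown, since these 3 genes rose together. They are the 250 bases before the RefSeq transcription start on GRCm38.p6, on the gene's own strand, with capitals on CCAAT or its reverse complement ATTGG and on TATAAA or its reverse complement TTTATA. The *Col1a2* stretch lies at chr6:4505368-4505617, that of *Col3a1* at chr1:45311288-45311537 and that of *Col6a3* at chr1:90843972-90844221 on the minus strand.
Col1a2: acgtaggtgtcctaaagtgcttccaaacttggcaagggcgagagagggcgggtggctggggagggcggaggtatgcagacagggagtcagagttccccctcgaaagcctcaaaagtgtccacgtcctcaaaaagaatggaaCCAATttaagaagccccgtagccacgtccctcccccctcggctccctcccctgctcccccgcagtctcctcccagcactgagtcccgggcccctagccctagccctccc
Col3a1: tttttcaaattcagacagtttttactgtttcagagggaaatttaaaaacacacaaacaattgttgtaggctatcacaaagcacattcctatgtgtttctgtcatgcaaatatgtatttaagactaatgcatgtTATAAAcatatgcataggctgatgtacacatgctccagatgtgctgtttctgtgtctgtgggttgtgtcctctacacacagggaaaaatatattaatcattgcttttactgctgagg
Col6a3: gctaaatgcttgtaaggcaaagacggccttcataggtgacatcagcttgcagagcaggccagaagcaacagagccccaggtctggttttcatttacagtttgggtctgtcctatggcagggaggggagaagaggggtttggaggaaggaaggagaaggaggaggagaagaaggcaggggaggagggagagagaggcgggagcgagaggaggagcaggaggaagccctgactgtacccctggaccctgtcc
*Col1a2* held CCAAT beginning 109 bases before the start, *Col3a1* held TATAAA 117 bases before the start, and *Col6a3* held neither. Of the 39 collagen, laminin, proteoglycan and elastic fibre genes that rose, 22 had RefSeq starts, 27 in all. Windows with CCAAT on either strand made up 29.6% of those 27 and 33.8% of all 32851, and windows with TATAAA made up 7.41% and 12.4%. The letters were thus no more frequent in the raised matrix genes than in all windows, and a match is a description of sequence only.

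Other chains of the family rose by less or from lower levels. *Col6a3*, a chain of the microfibrillar type VI collagen, went from 2.77 and 2.46 CPM in WT to 29.0 and 29.4 CPM in cKO (log2 fold change 3.49). *Col7a1*, which builds the anchoring fibrils of epithelial basement membranes, went from 4.34 and 4.23 CPM to 42.6 and 41.2 CPM (3.29). *Col4a1* and *Col4a2* encode the paired chains of the basement membrane and are transcribed in opposite directions from one short stretch, as the ends of chr8:11198423-11312826 and chr8:11312805-11449287 show. Both rose, *Col4a2* from 113 and 116 CPM to 382 and 384 CPM and *Col4a1* from 297 and 291 CPM to 530 and 654 CPM, with log2 fold changes of 1.74 and 1.01. Because these genes overlap at their starts and strand-specific counting is not stated, reads from the overlap cannot be assigned. *Col5a1* and *Col5a2*, which regulate fibril diameter, had log2 fold changes of 0.61 and 0.76. *Col9a3*, a cartilage chain, had one of 1.98.

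Proteoglycans that sit on collagen fibrils rose with them. Of 14 small leucine-rich proteoglycans tested, 6 rose and none fell (42.9%). Decorin (*Dcn*), which binds collagen and growth factors, was 9.12 and 8.55 CPM in WT and 89.6 and 89.7 CPM in cKO, a log2 fold change of 3.34 ± 0.16 (SE, edgeR adjusted p = 2.6e-06). Biglycan (*Bgn*), its close relative, was 138 and 131 CPM in WT and 646 and 654 CPM in cKO, a log2 fold change of 2.27. Lumican (*Lum*), known from cornea and meninges, was below 1 CPM in WT and 8.87 and 7.35 CPM in cKO. *Epyc* had no count in either WT library and 1.85 and 1.63 CPM in cKO, at least 81.9-fold higher against a floor of 3 counts over the WT libraries. The hyaluronan-binding *Vcan* and the hyaluronan synthase *Has2* also rose (log2 fold changes 0.99 and 1.26). *Tnc*, a matrix glycoprotein that astrocytes themselves secrete, was 1131 and 1132 CPM in WT and 2152 and 2149 CPM in cKO, a log2 fold change of 0.93.

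Elastic fibre and fibronectin genes gave 15 rises and 1 fall among 27, or 55.6% and 3.70% of members, and a median log2 fold change of 0.88. *Fbn1*, the main microfibril protein, was 78.2 and 76.1 CPM in WT and 222 and 220 CPM in cKO. *Lox*, the enzyme that cross-links collagen and elastin, was 258 and 260 CPM in WT and 637 and 646 CPM in cKO. These genes had log2 fold changes of 1.52 ± 0.051 (SE, edgeR adjusted p = 2.6e-07) and 1.31 ± 0.032 (edgeR adjusted p = 2.9e-08). The related oxidases *Loxl1* and *Loxl2*, periostin (*Postn*), elastin (*Eln*) and the microfibril proteins *Mfap4* and *Mfap5* rose by 0.98 to 2.24 on the log2 scale. *Fn1*, fibronectin itself and already abundant, was 1993 and 1784 CPM in WT and 3205 and 2937 CPM in cKO. *Tgfbi*, a TGF-beta induced matrix protein, was the exception, with 454 and 448 CPM in WT and 235 and 247 CPM in cKO. It fell by 0.91 on the log2 scale (SE 0.063, edgeR adjusted p = 2.6e-05).

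**Figure D1:**
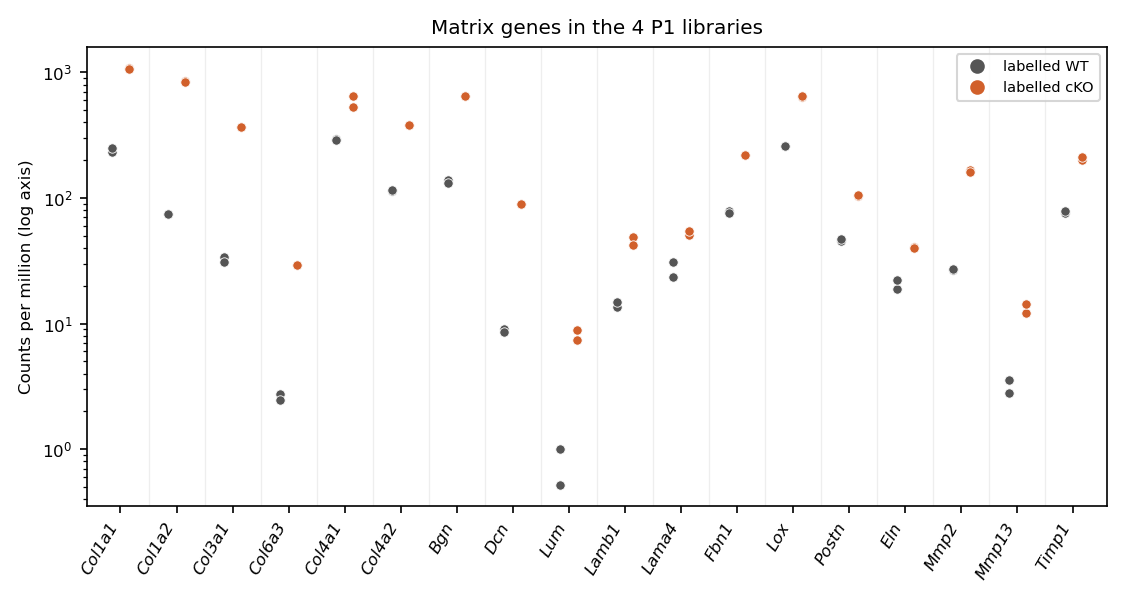
Points are the CPM (log axis) of 18 matrix genes in each of the 4 P1 libraries, grey for WT and orange for cKO. In every gene drawn both cKO points lie above both WT points, as for *Dcn* at 8.55 and 9.12 against 89.6 and 89.7.

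Laminins, the cross-shaped trimers of basement membranes, rose in 5 of 9 genes (55.6%). *Lamb1*, the common beta chain, was 13.6 and 14.8 CPM in WT and 48.9 and 42.3 CPM in cKO, with a log2 fold change of 1.68. *Lama2* and *Lama4* had log2 fold changes of 0.74 and 0.95. *Lama1* was 1.21 and 0.995 CPM in WT and 3.88 and 2.30 CPM in cKO, and its call was lost without WT replicate 2 and with the P1 libraries fitted alone. Integrins, the receptors for these proteins, gave 2 rises and 1 fall among 23 (8.70% and 4.35%, against 4.01% and 0.892% of all genes). The rise of *Itga11* was lost in 3 of 10 alternative analyses and the fall, *Itgb4*, in 4.

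Enzymes that cut the matrix rose as well, in 13 of 38 metalloproteases and inhibitors (34.2%), and none fell. *Mmp2*, a gelatinase, was 26.8 and 27.1 CPM in WT and 166 and 162 CPM in cKO (log2 fold change 2.60 ± 0.061 SE, edgeR adjusted p = 2.3e-08). The collagenase *Mmp13* and the stromelysin *Mmp3* had log2 fold changes of 2.07 and 1.40. *Timp1*, an inhibitor of these enzymes, was 76.5 and 78.4 CPM in WT and 201 and 212 CPM in cKO. Proteases and an inhibitor were thus called in the same direction. *Mmp9* was also called, but its call was lost when any 1 of the 4 libraries was left out.

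Contractile genes gave 4 rises among 18 (22.2%, against 4.01% of all genes). *Actg2*, the enteric smooth muscle actin, was 0.536 and 0.786 CPM in WT and 48.5 and 47.2 CPM in cKO, a log2 fold change of 6.15 ± 0.17 (SE, edgeR adjusted p = 5e-08). The myosin kinase *Mylk* and the tropomyosins *Tpm1* and *Tpm2* had log2 fold changes of 1.71, 0.69 and 0.72. The smooth muscle actin *Acta2* was 1675 and 1679 CPM in WT and 2497 and 2496 CPM in cKO, a log2 fold change of 0.57 that did not reach the fold threshold.

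Markers of the cells that could accompany astrocytes moved with these families. All 9 tested fibroblast or meningeal markers rose, and their summed level was 412 and 426 CPM in WT and 2542 and 2504 CPM in cKO. Since this list holds *Col1a1*, *Col1a2*, *Col3a1*, *Dcn* and *Lum*, its count repeats the matrix genes above. The rest of it held *Col6a3*, the transcription factors *Foxc1* and *Foxd1* and the receptor *Pdgfrb*, whose call was lost without WT replicate 1 or cKO replicate 1; *Slc6a13* was not analysed here. *Foxc1*, which meningeal and mural cells use, was 10.7 and 11.4 CPM in WT and 31.1 and 21.3 CPM in cKO. Of 8 tested endothelial markers, 4 rose, with *Cdh5* (VE-cadherin) from 1.54 and 1.72 CPM to 13.5 and 13.6 CPM, while *Kdr* differed by 0.09 on the log2 scale. Their sum was 79.5 and 80.0 CPM in WT and 102 and 97.7 CPM in cKO, and *Pecam1* and *Cldn5* were not analysed here. Mural markers gave 1 rise of 7 (*Cspg4*), with sums of 2664 and 2665 CPM in WT and 3861 and 3854 CPM in cKO. The astrocyte markers summed to 2497 and 2546 CPM in WT and 2421 and 2441 CPM in cKO. In bulk libraries more cells of a type and more RNA per cell cannot be told apart, and the part of these markers in the matrix differences was not tested.

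**Figure D2:**
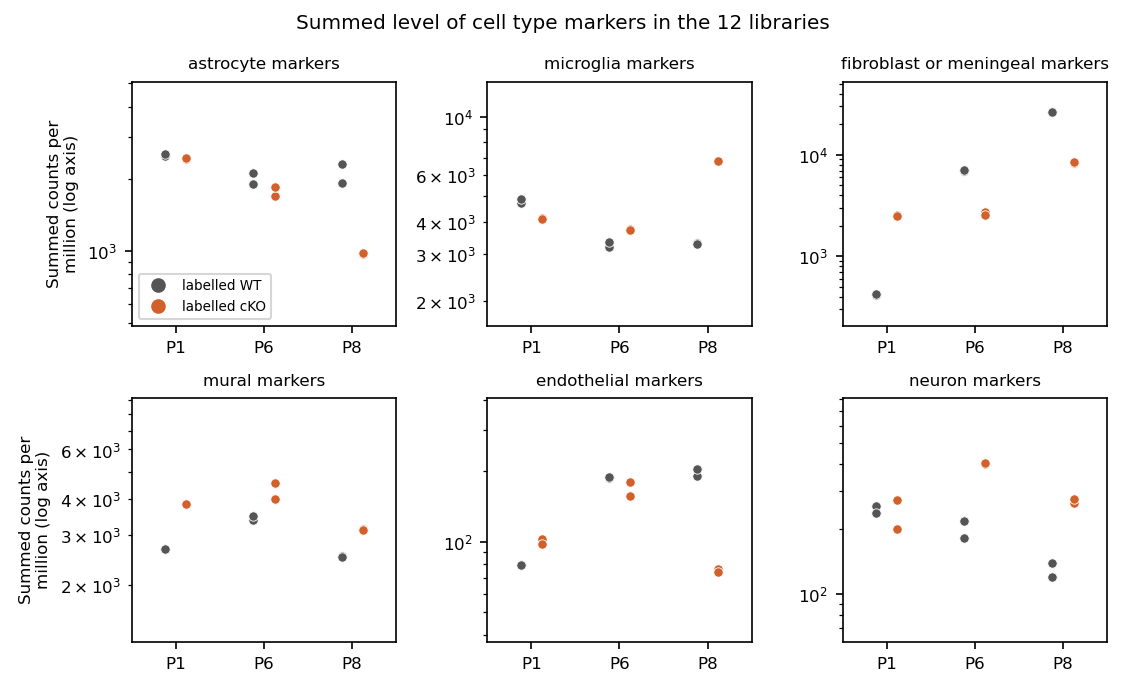
Each panel gives the summed CPM (log axis) of 1 list of cell type markers in the 12 libraries by postnatal day, grey for WT and orange for cKO. Fibroblast or meningeal markers lie at 2542 and 2504 in cKO at P1, above the WT libraries at 412 and 426, and lie below WT at P6 and P8.

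Transcription factors formed the next block. Among 29 forkhead genes 9 rose and 1 fell (31.0% and 3.45%), and with the P1 libraries fitted alone 6 rose. *Foxp2*, *Foxd1*, *Foxc2* and *Foxc1*, regulators of mesenchyme and neural progenitors, had log2 fold changes of 3.45, 2.85, 2.24 and 1.25. The endodermal and floor plate factors *Foxa1* and *Foxa2* rose too, *Foxa1* from 0.620 and 1.02 CPM to 3.09 and 4.28 CPM and *Foxa2* from 0.101 and 0.344 CPM to 2.24 and 1.53 CPM. *Foxd3*, a neural crest factor, fell from 0.520 and 0.504 CPM, and its call was lost in 3 of 10 alternative analyses. The remaining homeobox genes, Hox genes aside, gave 15 rises and 1 fall among 73 (20.5% and 1.37%), or 8 rises with the P1 libraries alone. *Msx1*, a factor of neural crest and limb mesenchyme, was 1.98 and 2.29 CPM in WT and 6.61 and 5.90 CPM in cKO. *En2*, a midbrain and cerebellar factor, was 6.69 and 6.21 CPM in WT and 14.9 and 15.5 CPM in cKO. *Six2* and *Alx4*, of head mesenchyme and kidney, had log2 fold changes of 3.39 and 2.17 and lost their calls when the P1 libraries were fitted alone.

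*Tbx15* and *Tbx18*, T-box factors of limb and mural mesenchyme, were among 5 rises in 27 T-box, GATA and basic helix-loop-helix genes. *Tbx15* was 1.29 and 0.762 CPM in WT and 9.49 and 9.22 CPM in cKO (log2 fold change 3.21 ± 0.18 SE, edgeR adjusted p = 5.4e-06). *Tbx18* was 1.94 and 1.13 CPM in WT and 10.3 and 9.62 CPM in cKO (2.71 ± 0.20 SE, edgeR adjusted p = 4e-05). Most of these factors were thus low in every library, and the rise took them to a few CPM. The one homeobox fall, *Nkx6-2* of the oligodendrocyte lineage, was 11.7 and 12.9 CPM in WT and 4.81 and 5.60 CPM in cKO, and its call was lost without cKO replicate 1. No call was made among 15 Sox genes, 12 Hox genes or 17 factors of gliogenesis. These lists are too small to set apart from the 4.01% and 0.892% of all genes. Immediate-early factors gave 5 rises of 28, with *Egr1* at 43.9 and 45.1 CPM in WT and 92.8 and 90.3 CPM in cKO.

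Secreted growth signals rose mostly from low WT levels. The insulin-like growth factor axis had 6 rises of 21 (28.6%). *Igf2*, a fetal growth factor expressed from the paternal allele, was 0.603 and 9.81 CPM in the WT libraries and 233 and 235 CPM in the cKO libraries. The WT libraries thus differed from each other, with no overlap with cKO, and the log2 fold change was 5.44 ± 0.81 (SE, edgeR adjusted p = 0.0032). Its call was lost with the P1 libraries fitted alone. The binding proteins *Igfbp6* and *Igfbp7* and the clearance receptor *Igf2r* had log2 fold changes of 3.99, 0.95 and 0.67. *H19*, the maternally expressed RNA next to *Igf2* on chromosome 7, was 8.33 and 10.6 CPM in WT and 23.1 and 24.9 CPM in cKO. Among 39 imprinted genes 7 rose and 1 fell (17.9% and 2.56%). *Mest*, a paternally expressed hydrolase, went from 70.6 and 72.6 CPM to 231 and 221 CPM, and the growth inhibitor *Grb10* from 48.1 and 48.1 CPM to 94.4 and 101 CPM.

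Retinoic acid genes gave 8 rises of 22 and no fall (36.4%), with a median log2 fold change of 0.49. *Stra6*, the cell-surface receptor that takes in retinol, was 0.419 and 0.971 CPM in WT and 13.04 and 11.7 CPM in cKO (log2 fold change 4.13 ± 0.35 SE, edgeR adjusted p = 1e-04). Conversion of retinol to the active acid uses dehydrogenases, and *Rdh5*, *Aldh1a1* and *Aldh1a2* had log2 fold changes of 1.84, 0.80 and 1.39. *Aldh1a2*, the enzyme of meninges and other mesenchyme, was 2.51 and 2.49 CPM in WT and 6.95 and 6.14 CPM in cKO. The binding protein *Crabp2* and the receptor *Rarb* rose too, by 2.81 and 1.20 on the log2 scale. The calls of *Crabp2* and *Rarb* were each lost without 1 of the WT libraries, replicate 2 for *Crabp2* and replicate 1 for *Rarb*. The list therefore held members of uptake, synthesis, binding and response.

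Receptors and antagonists of Wnt signalling gave 6 rises among 38 and no fall (15.8%). *Dkk2*, a secreted antagonist, was 0.536 and 0.393 CPM in WT and 3.38 and 3.34 CPM in cKO. *Ror2*, a receptor of the noncanonical branch, was 1.59 and 1.84 CPM in WT and 5.51 and 7.02 CPM in cKO. *Axin2*, a feedback target of the canonical branch, had a log2 fold change of 0.60 and lost its call without WT replicate 2 or cKO replicate 2. Among 54 BMP and TGF-beta genes 5 rose (9.26%). *Inhba*, the activin A subunit, was 20.8 and 21.4 CPM in WT and 135 and 128 CPM in cKO, a log2 fold change of 2.64 ± 0.072 (SE, edgeR adjusted p = 5e-08). *Bmp4* and the BMP modulator *Bmper* had log2 fold changes of 0.89 and 2.20. *Fgf7*, a fibroblast growth factor made by mesenchyme, was 0.888 and 2.22 CPM in WT and 12.5 and 12.1 CPM in cKO. No Notch gene was called among 18, too few genes to set apart from the 4.01% and 0.892% of all genes.

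Trophic factors and their receptors gave 11 rises and 3 falls among 47 (23.4% and 6.38%). *Lif*, a cytokine that drives astrocyte differentiation, was 22.8 and 19.9 CPM in WT and 52.6 and 53.1 CPM in cKO. Midkine (*Mdk*), *Vegfa* and *Bdnf* had log2 fold changes of 1.27, 0.75 and 0.95. The falls were the neurotrophin receptor *Ngfr*, the GDNF receptor *Ret* and the growth factor *Hgf*, at −1.24, −1.23 and −0.76 on the log2 scale. *Ngfr* was 8.60 and 7.07 CPM in WT and 3.28 and 3.35 CPM in cKO. Of the 3 falls, only *Ngfr* kept its call in every alternative analysis. The calls of *Ret* and *Hgf* were each lost when the P1 libraries were fitted alone in edgeR. Hedgehog genes gave 2 rises and 1 fall among 16 (12.5% and 6.25%). The rises were the acyltransferase *Hhat*, at 1.37 and 1.56 CPM in WT and 2.72 and 4.34 CPM in cKO, and *Scube1*, at 0.436 and 0.332 CPM in WT and 1.55 and 0.930 CPM in cKO, and the call of *Hhat* was lost without WT replicate 1 or cKO replicate 2. The fall was the ligand *Shh*, from 104 and 94.9 CPM in WT to 44.1 and 42.8 CPM in cKO (log2 fold change −1.19 ± 0.12 SE, edgeR adjusted p = 0.00032).

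Immune genes were counted in separate lists. Cytokines and their receptors had 10 rises and 1 fall among 82 (12.2% and 1.22%). *Tnfsf15*, a TNF-family ligand of endothelium, was 1.12 and 2.08 CPM in WT and 21.0 and 22.2 CPM in cKO. *Il34*, a ligand of the microglial receptor *Csf1r*, was 2.35 and 2.25 CPM in WT and 7.94 and 10.9 CPM in cKO. *Il33* and *Il6* had log2 fold changes of 1.28 and 1.23. The chemokine *Ccl6* was 80.7 and 84.1 CPM in WT and 260 and 262 CPM in cKO. Of 54 interferon-stimulated genes only *Ifi27* was called, a rise (1.85%), and none of 33 MHC genes was. In lists of this size such counts lie near the 4.01% and 0.892% of all genes. Complement gave 3 rises and 1 fall of 29 (10.3% and 3.45%). The call of *C1rl*, 1 of the rises, was lost in 4 of 10 alternative analyses. *C4b*, a component of the classical cascade, was 76.5 and 78.5 CPM in WT and 203 and 200 CPM in cKO.

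Prostaglandin genes gave 4 rises and 3 falls among 23. *Ptgs2*, the inducible cyclooxygenase, was 23.4 and 22.2 CPM in WT and 105 and 108 CPM in cKO (log2 fold change 2.23 ± 0.095 SE, edgeR adjusted p = 1.1e-06). Prostacyclin synthase (*Ptgis*) was 0 and 0.0983 CPM in WT and 5.56 and 5.20 CPM in cKO. The falls were the receptor *Ptger4*, the prostaglandin-degrading *Hpgd* and the leukotriene synthase *Ltc4s*, at −0.89, −0.96 and −1.25 on the log2 scale. *Ptger4* lost its call without cKO replicate 1, and *Ltc4s* lost its call without WT replicate 1 or cKO replicate 1.

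Microglial genes were lower. The 10 microglia markers, 1 of which (*Itgam*) stands on 2 identifiers, made 11 entries. Of these, 2 fell (18.2%) and none rose, and 7 passed the adjusted p at a lower level with any fold. Over all genes 0.892% fell, and 527 of 17938 passed at a lower level with any fold. The most abundant markers, *C1qa*, *C1qc* and *C1qb*, had log2 fold changes of only −0.19, −0.18 and −0.19. *Cx3cr1*, the fractalkine receptor, was 78.0 and 68.9 CPM in WT and 37.8 and 44.8 CPM in cKO, and *Tmem119* was 82.2 and 76.6 CPM in WT and 46.4 and 48.1 CPM in cKO. *Csf1r*, on which these cells depend, was 667 and 670 CPM in WT and 495 and 519 CPM in cKO, a log2 fold change of −0.40 below the fold threshold. The summed marker level was 4689 and 4853 CPM in WT and 4139 and 4098 CPM in cKO. Outside the lists, the sialophorin *Spn* of blood cells fell, at 9.57 and 9.62 CPM in WT and 2.69 and 2.53 CPM in cKO, and so did the phospholipase *Plcb2*, by 1.63 on the log2 scale. Whether these falls followed the number of microglia was not tested.

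Genes of astrocyte function changed in part. None of 12 glutamate uptake and glutamine cycle genes was called, nor any of 13 neural stem cell genes. Both lists are too small to set apart from the 4.01% and 0.892% of all genes. Of 34 reactive astrocyte genes, 5 rose (14.7%), namely *Ptgs2*, *Timp1*, *Hspb1*, *Fbln5* and *Tm4sf1*. The connexin *Gjb2*, known from meninges, was 0.905 and 0.676 CPM in WT and 6.89 and 6.42 CPM in cKO. The synaptogenic thrombospondins both rose, *Thbs2* from 93.8 and 95.6 CPM to 295 and 308 CPM and *Thbs1* from 1260 and 1218 CPM to 2172 and 2190 CPM. In the list of solute carriers the glycine transporter *Slc6a9* had a log2 fold change of 1.13.

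Receptors for transmitters and guidance cues moved in both directions. Amine, acetylcholine and peptide receptors gave 5 rises and 1 fall among 34 (14.7% and 2.94%). The serotonin receptors *Htr2a* and *Htr1b* were among the rises, *Htr2a* from 2.10 and 2.70 CPM in WT to 8.72 and 8.72 CPM in cKO and *Htr1b* from 0.134 and 0.356 CPM to 5.42 and 6.62 CPM. *Avpr1a*, a vasopressin receptor and the fall in that list, fell by 2.88 on the log2 scale from 1.54 and 2.16 CPM. The opioid precursor *Penk* was 0.469 and 0.614 CPM in WT and 4.51 and 5.55 CPM in cKO. Among semaphorins and their receptors 4 of 30 rose and none fell, led by *Sema7a*, which was 9.02 and 9.73 CPM in WT and 32.1 and 30.9 CPM in cKO. *Epha7*, a repulsive ephrin receptor, had a log2 fold change of 1.76. *Piezo2*, a mechanosensitive channel, was 4.83 and 4.24 CPM in WT and 15.6 and 16.7 CPM in cKO, and the chloride channel *Ano1* had a log2 fold change of 1.47. Potassium channel subunits gave 3 rises and 3 falls of 39 (7.69% each, against 4.01% and 0.892% of all genes). The call of *Kcnj4*, 1 of those falls, was lost in 6 of 10 alternative analyses.

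Several of the falls lay in the lists of adhesion genes and of GABA and glycine receptors. Immunoglobulin and leucine-rich adhesion genes had 5 falls and 2 rises among 31, or 16.1% lower against the 0.892% of all genes. *Igsf1* was 5.52 and 6.14 CPM in WT and 1.41 and 1.35 CPM in cKO, a log2 fold change of −2.08 ± 0.17 (SE, edgeR adjusted p = 6.8e-05). *Cntnap2*, which clusters potassium channels along axons, was 18.7 and 16.4 CPM in WT and 7.84 and 9.005 CPM in cKO. *L1cam*, *Ncam2* and *Cntn3* were also called lower, but each lost its call in at least 4 of 10 alternative analyses, and 2 falls remained in the list without WT replicate 1. Both called genes of 8 GABA and glycine receptors fell, *Gabrb1* from 24.3 and 20.9 CPM to 11.9 and 11.2 CPM and *Gabre* from lower levels. The *Gabrb1* call was lost in 3 of 10 alternative analyses and the *Gabre* call in 5. Leaving out WT replicate 1, cKO replicate 1 or cKO replicate 2 lost both calls. Clustered protocadherins gave 1 fall of 40.

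Synaptic vesicle and scaffold genes gave 1 rise and no fall among 25, and neuron markers 1 rise and no fall among 4. The following genes that fell were named for their own values and stand for no list. *Neto2*, an auxiliary subunit of kainate receptors, was 125 and 99.1 CPM in WT and 28.4 and 32.3 CPM in cKO, a log2 fold change of −1.89 ± 0.12 (SE, edgeR adjusted p = 1.4e-05). *Vgf*, a secreted neuropeptide precursor, was 264 and 270 CPM in WT and 111 and 111 CPM in cKO. The granin *Scg3* and the growth cone protein *Gap43* had log2 fold changes of −0.66 and −0.80. Lactate dehydrogenase B (*Ldhb*) was the only call among 32 glycolysis, lactate and glycogen genes, at 171 and 189 CPM in WT and 84.6 and 92.5 CPM in cKO. *Rac1*, a cytoskeletal GTPase, was 446 and 423 CPM in WT and 111 and 124 CPM in cKO, but its call was lost when any 1 of the 4 libraries was left out.

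**Figure D3:**
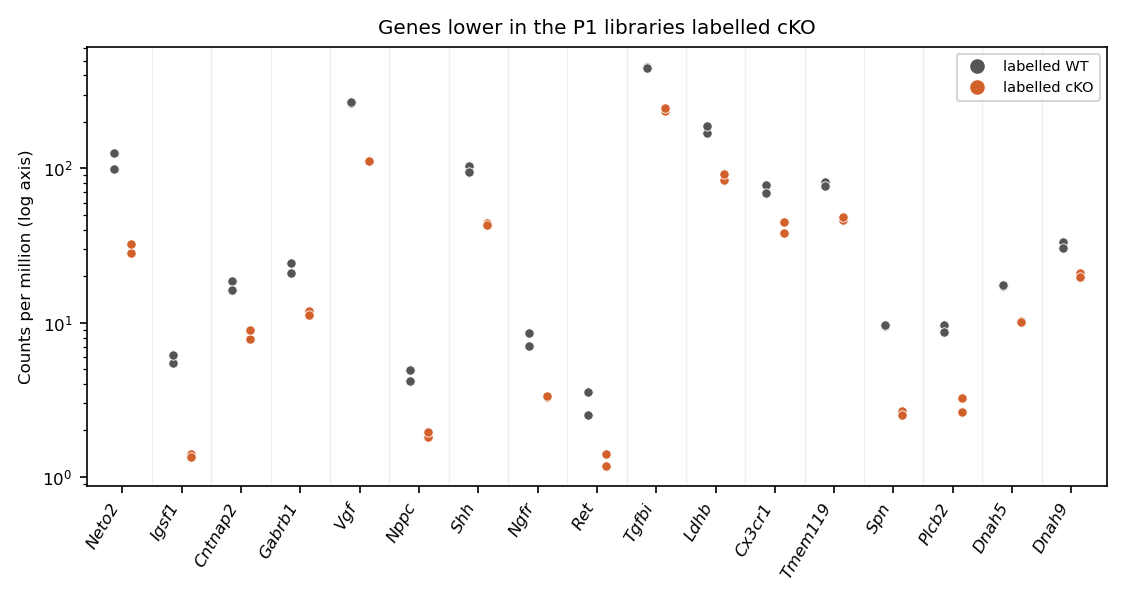
Points are the CPM (log axis) of 17 genes that were lower in cKO, in each of the 4 P1 libraries, grey for WT and orange for cKO. Both cKO points lie below both WT points in every gene drawn, as for *Neto2* at 28.4 and 32.3 against 125 and 99.1.

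Motile cilia genes gave 4 falls and 1 rise among 33 (12.1% and 3.03%, against 0.892% and 4.01% of all genes). *Dnah9*, a dynein arm heavy chain, was 33.6 and 30.5 CPM in WT and 21.1 and 19.8 CPM in cKO, and *Dnah5* was 17.2 and 17.5 CPM in WT and 10.3 and 10.1 CPM in cKO. The falls of *Dnah5*, *Dnah9*, *Rsph4a* and *Spag6l* were each lost when any 1 of the 4 libraries was left out. *Foxj1*, the factor that switches on motile cilia, was 214 and 221 CPM in WT and 205 and 223 CPM in cKO. *Dnah5* and *Dnah9* were thus apart between the labels and *Foxj1* overlapped, and the median log2 fold change of the list was −0.13.

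Growth, metabolism and chromatin lists differed among themselves. No call was made among 45 DNA replication genes, 60 mitosis genes, 52 clustered histone genes or 83 cytosolic ribosomal protein genes. The 43 cholesterol genes, 36 Polycomb subunits and 23 trithorax and demethylase genes also held none. All of these lists but the ribosomal one are too small to set apart from the 4.01% and 0.892% of all genes. Mitosis genes leaned down without reaching the fold, with a median log2 fold change of −0.27, 57 of 60 below 0 and 7 past the adjusted p at any fold. DNA replication genes had a median of −0.13 and 2 past the adjusted p. Respiratory chain subunits had 1 fall of 94, and zinc-finger (Zfp) genes had 3 rises of 349 (0.86%), below the 4.01% of all genes. CDK inhibitors, D cyclins and p53 targets gave 2 rises of 28 (7.14%), the cell-cycle inhibitor *Cdkn2a* and the p53 target *Perp*. The call of *Cdkn2a* was lost in 3 of 10 alternative analyses. Metallothioneins and NRF2 targets gave 3 rises of 36 (8.33%), and amino acid and other solute carriers gave 7 rises and 2 falls of 58 (12.1% and 3.45%). The unfolded protein and stress response list had 4 rises of 42 (9.52%), among them the cystine transporter *Slc7a11* and the glutathione-degrading *Chac1*, with log2 fold changes of 0.61 and 1.40.

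Outside the lists, 487 of 15505 genes rose and 120 fell, or 3.14% and 0.774%. *Casq1*, the calcium-binding protein of the sarcoplasmic reticulum, was 28.5 and 31.8 CPM in WT and 426 and 410 CPM in cKO (log2 fold change 3.79 ± 0.087 SE, edgeR adjusted p = 2e-08). *Mgp*, an inhibitor of calcification, was 0.704 and 0.786 CPM in WT and 13.2 and 12.8 CPM in cKO. *Thbd*, the thrombin receptor of endothelium and meninges, was 4.71 and 4.39 CPM in WT and 36.7 and 41.4 CPM in cKO. These genes were picked from those whose labels did not overlap, so that separation was set by the choice.

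The P1 differences were then set beside those at P6 and P8, which used other libraries. At P6, 7.16% of all genes were higher and 6.38% lower in cKO, and at P8 11.2% were higher and 8.37% lower. Of the 719 genes that rose at P1, 284 also rose at P6 and 223 fell, and 256 rose and 219 fell at P8. They rose at all 3 ages in 198 cases and fell at both later ages in 145. Of the 160 that fell at P1, 50 fell and 11 rose at P6, and 53 fell and 29 rose at P8. Tested directly, the cKO effect differed from that at P1 in 510 of the 879 called genes at P6 and 574 at P8, against 15.3% and 25.7% of all genes. The P1 effect that chose the 879 genes also enters that difference. The P6 libraries held *Xist* and almost no Y-linked transcripts in both genotypes, unlike those at P1 and P8, so age and the sex of the cells cannot be told apart between P1 and P6.

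Matrix and mesenchymal genes were among those that changed sign. *Col1a2* was 3.51 higher in cKO at P1 on the log2 scale but −1.38 at P6 and −1.63 at P8, and *Dcn* was 3.34, −6.09 and −5.0 at the same ages. All 9 fibroblast or meningeal markers differed from P1 at both later ages. *Igf2* went from 5.44 to −8.26 and −6.53, and *Tbx18* from 2.71 to −4.65 and −2.71. Another group kept its direction, with *Casq1* at 3.79, 4.11 and 3.81, *Mest* at 1.66, 2.66 and 3.70 and *Tnc* at 0.93, 2.01 and 2.04. Among the falls, *Neto2*, *Ngfr*, *Tgfbi* and *Ldhb* were lower in cKO at all 3 ages, while *Shh* went from −1.19 to 1.41 and 3.14. These examples were chosen after their values were seen.

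**Figure D4:**
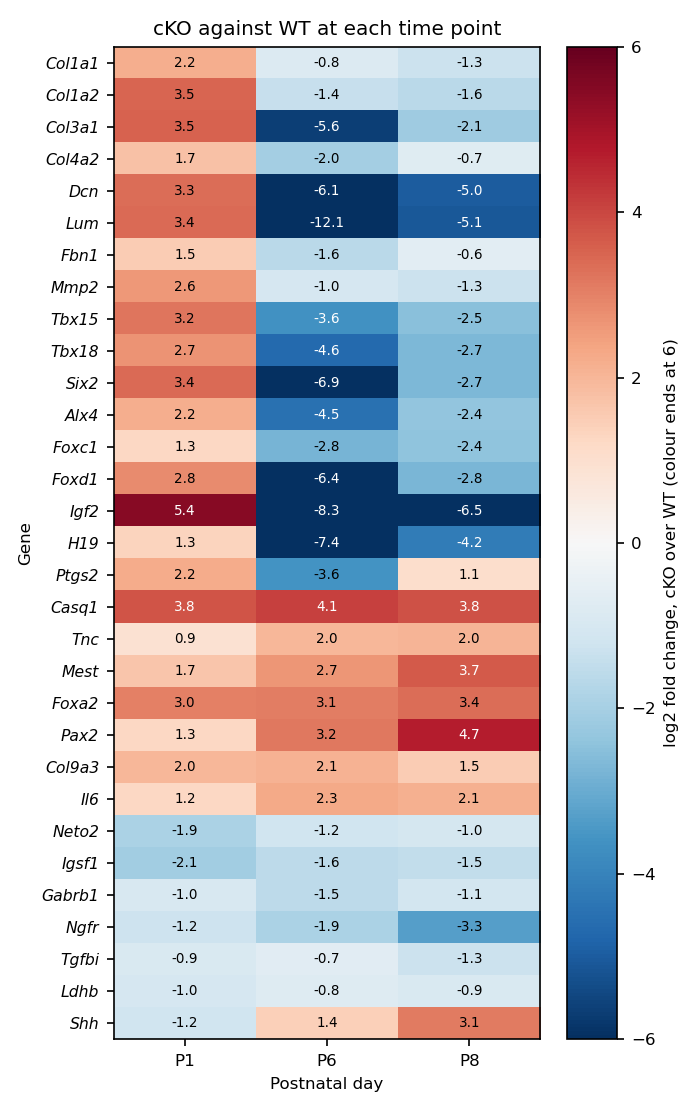
Cells give the log2 fold change of cKO over WT for 31 genes (rows) at P1, P6 and P8 (columns), red for higher and blue for lower in cKO, with colours ending at 6. The upper rows, such as *Dcn* at 3.3, −6.1 and −5.0, change sign after P1, and rows such as *Casq1* at 3.8, 4.1 and 3.8 do not.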

How the data were processed

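RNA sequencing counts of cultured primary astrocytes were analysed for 12 libraries in 6 groups of 2. The authors deposited 1 table of raw read counts per gene; the submitters' processing notes name HISAT2 and mm10, and the sources used here do not give the counting program or its strand setting. Genes passing filterByExpr were scaled by TMM and fitted with edgeR 4.0.16 (quasi-likelihood test with Benjamini-Hochberg adjustment over all genes tested, 6 group means, R 4.3.3), with the contrast of P1 cKO minus P1 WT and the differences of that effect from P6 and P8. CPM are counts per 1000000 of the scaled library size, not divided by gene length, so levels are compared within a gene. Fold changes carry standard errors, and 2 libraries per label limit the precision. The pipeline was tested on simulated data. DESeq2 1.42.0, other scalings and filters, a replicate block and leaving out each P1 library were the alternatives.

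The comparison, its gene lists and its tests were chosen with earlier results of these data known, so lists are described by counts and medians and have no test of their own. From each list the text took up to 2 rises and 1 fall with the largest change at a mean of at least 1 CPM with labels not overlapping, key genes of the lists, and 10 rises and 10 falls from outside the lists at a mean of at least 5 CPM; further genes were named after their values were seen. Gene positions come from GENCODE vM21 on GRCm38. Replicate numbers did not pair the samples: deviations of same-numbered libraries correlated between −0.0412 and 0.101.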

Additional observations from a re-analysis of the deposited data

Results flagged for a closer look

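The results below are given because the cKO effect differed at a later age by the test of the difference itself (edgeR, adjusted p below 0.05). Of the 879 called genes this held for 510 at P6 (58.0%) and 574 at P8 (65.3%), the shares against which each family is to be read. The P1 effect that chose these genes also enters the difference. All 9 of 9 fibroblast or meningeal markers differed at P6 and again 9 at P8. Among 13 called collagen chains it was 10 at P6 and 12 at P8, and among 16 called elastic fibre and fibronectin genes 14 and 15. Metalloproteases and inhibitors had 9 at each age of 13 called. For trophic factors and receptors it was 8 and 11 of 14, for cytokines and their receptors 5 and 7 of 11, and for solute carriers 7 and 9 of 9. Homeobox genes other than Hox had 12 and 11 of 16 and forkhead genes 6 and 5 of 10. Cytokines, forkhead genes and, at P6, trophic factors were near or below the share of all called genes. The P6 libraries also differed from the others in *Xist* and Y-linked transcripts in both genotypes, and the part of that in the P6 differences was not tested. With 2 libraries in a group, single libraries were not screened for outliers.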

How the results depend on the processing

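The counts of rises and falls at P1 depended on the threshold more than on the scaling. At the unadjusted cut-off 1146 rose and 444 fell; at a fold of at least 2 there were 488 rises and 72 falls; DESeq2 over all libraries gave 263 falls. Leaving out 1 P1 library at a time gave 564 to 608 rises and 101 to 163 falls, the lowest count of falls without WT replicate 1; the lone library was then assumed to vary like the other groups. The replicate block gave 666 rises and 141 falls, and the replicate numbers did not pair the samples. Fitting the 4 P1 libraries alone gave 523 rises, 478 of them among the 719. Of 223 called genes that were followed by name, 148 kept their call in every alternative, 23 lost it in 1 or 2, 52 in 3 or more, and none changed direction. Depth limits genes near 1 CPM, and the calls of *S100b*, *Kcnj4* and *Lrrtm2* were each lost in 6 alternatives. The cause of these shifts was not tested.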

Other observations

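Further families not described above were also called at P1. Cadherins and protocadherins outside the clusters gave 6 rises and 1 fall among 30 (20.0% and 3.33%, against 4.01% and 0.892% of all genes). Among the rises was *Cdh11*, a mesenchymal cadherin, at 66.5 and 58.2 CPM in WT and 120 and 123 CPM in cKO. Purine receptors and ectonucleotidases gave 4 rises and no fall among 28 (14.3%). Of those rises, *Enpp2* and *Adora2b* each lost the call in 3 of 10 alternative analyses. Tight junction genes gave 3 rises among 13 (23.1%), and netrin, Slit, Robo and Unc5 genes gave 2 among 17 (11.8%). The calls of *Unc5b* and *Ntn5* were lost in 3 and 5 of 10 alternative analyses. *Slc38a4*, an imprinted amino acid transporter of placenta and liver, had no count in either WT library and 2.53 and 2.76 CPM in cKO, at least 124-fold higher against a floor of 3 counts over the WT libraries.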
